A study of Mus musculus with 2 samples.

Results

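Genes of the mitochondrial ribosome were examined in RNA hybridized to 2 one-colour arrays (Affymetrix Mouse Genome 430A 2.0). The RNA came from mouse uterine stromal cells, the connective tissue cells under the uterine epithelium that decidualize around an embryo. The members were chosen by gene symbol alone, Mrpl or Mrps followed by a digit, although this gene set was proposed with the signals of these arrays already known. They comprise 74 genes with 127 probe sets, 47 genes with 88 probe sets named for the large subunit and 27 genes with 39 probe sets named for the small subunit, among 12393 genes with a probe set of a single symbol and 22690 probe sets. RefSeq's table lists 78 protein-coding genes under such symbols, and the other 4 (Mrpl30, Mrpl53, Mrps10 and Mrps27), without a probe set of their own symbol alone, were not analysed here as members. The knockout-labelled array holds stromal cells pooled from 3 conditional knockout mice, and the control array holds those of 3 floxed control mice, all on day 5 of pregnancy after mating to fertile males. The uterine horns were digested with enzymes to release the cells. Cre recombinase was expressed from the progesterone receptor promoter, which is active in several uterine cell types. The titles name Hif1, the genotype field Hif2 alpha (gene Epas1), and the breeding note Rac1 as the target. Strain and age are not given in the sources used here.

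Mitochondria carry their own ribosomes, which translate the few membrane proteins encoded in mitochondrial DNA, all of them subunits of the respiratory chain and ATP synthase. Every protein of these ribosomes is encoded in the nucleus, made in the cytosol and imported. Some descend from bacterial ribosomal proteins, and others have no bacterial homologue and were added during mitochondrial evolution. After implantation, uterine stromal cells proliferate and turn into secretory decidual cells, and mitochondria supply part of the energy for this work.

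Each array is 1 pool with no replicate, so no difference has a test, and every value describes these 2 arrays. Signals are MAS5 signals on a linear scale, and those under a floor of 19.7 (the 40th percentile over both arrays) were raised to it before the log2 ratio, knockout-labelled minus control, was taken. A gene is represented by its probe set with the highest signal, and a gene counts as lower or higher "past 2-fold" by that rule of size alone. The 2 brightest probe sets of the same gene gave an SD of 0.64 for a log2 ratio (2660 genes), which is the error that could be estimated, and the number of arrays limits the precision. This SD leaves out a mean shift of 0.41 between the 2 probe sets, and with it the figure is 0.70. The difference between the 2 had an SD of 1.03 in 22 members and 0.91 in all 2660 genes, so the error may be larger for members. The arrays differed in more than genotype. Signal at the 3′ end over that at the 5′ end of b-actin was 16.0 on the knockout-labelled array and 2.27 on the control array, and that of Gapdh was 7.25 and 1.49 in the same order. The part of this difference in the results below was not tested, and with 1 array a group it cannot be told apart from genotype. Of 14 stromal markers, all were above the floor on the knockout-labelled array and 13 on the control array (median log2 ratio 0.14). Past 2-fold, 1 of these 14 was lower (Hoxa11, -1.85) and 0 higher at the brightest probe set. Further probe sets of Pdgfrb (-2.09), Pdgfra (-1.70) and Col1a1 (-1.26) were also past 2-fold lower. Nr2f2 was at -0.54 at its brightest probe set and at 0.81 and 0.70 at its others, all within 2-fold. Of 8 endothelial markers, 5 were at least 2-fold lower (median -1.17). Markers of smooth muscle and pericytes (3 of 7 lower), epithelium and glands (3 of 10 lower) and leukocytes (2 of 7 lower, 1 higher) had medians of -0.98, -0.43 and -0.62, and Cd3e, Cd79a and Krt19 were at the floor on both arrays. Summed marker signal on the knockout-labelled array and the control array was 46418 and 33855 for stroma, 1251 and 2653 for endothelium, 11417 and 11152 for smooth muscle and pericytes, 1939 and 2411 for epithelium and glands, and 2080 and 2061 for leukocytes. The part of these cells in the results was not tested. In such pooled RNA, fewer cells of a type and less RNA per cell cannot be told apart. The genes named in the labels were not depleted to the floor, with log2 ratios of 0.39 for Epas1, 1.10 for Hif1a and -0.46 for Rac1 at their brightest probe sets. A second Rac1 probe set had 332 on the knockout-labelled array and 664 on the control array, just past 2-fold lower, and the others of Hif1a above the floor were at 1.38 and 0.52. The probes were not placed against the deleted exons here.

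Most genes of both subunits had lower signals on the knockout-labelled array. All 74 members were above the floor on both arrays at their brightest probe set. Of the 47 large subunit genes, 14 were lower and 2 were higher past 2-fold, and the median log2 ratio was -0.49. Of the 27 small subunit genes, 8 were lower and 0 were higher past 2-fold, and the median was -0.64. Past 2-fold, 13.0% of all 8593 genes compared were lower and 6.21% higher, and their median was -0.10, so the share lower was 29.8% in the large subunit and 29.6% in the small subunit against that background. By any amount, 31 large subunit genes were lower and 16 higher, and 22 small subunit genes were lower and 5 higher. These are 66.0% lower in the large subunit and 81.5% in the small subunit, where 55.3% of all genes compared were lower. Counted by probe set, 31 of the 111 measured member probe sets were lower and 3 higher past 2-fold, where 13.9% and 6.84% of 13284 probe sets were. The split depended on the scaling, since centring each array on its median, which moved the median of all genes to 0.16, gave 11 lower and 5 higher for the large subunit and 5 lower and 2 higher for the small subunit. Under that centring 7.79% of all genes were lower and 13.3% higher past 2-fold. Centring adds 1 constant to the log2 ratio of every gene above the floor on both arrays, as all members were. It therefore says nothing about the order of the 2 subunit medians.

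**Figure D1:**
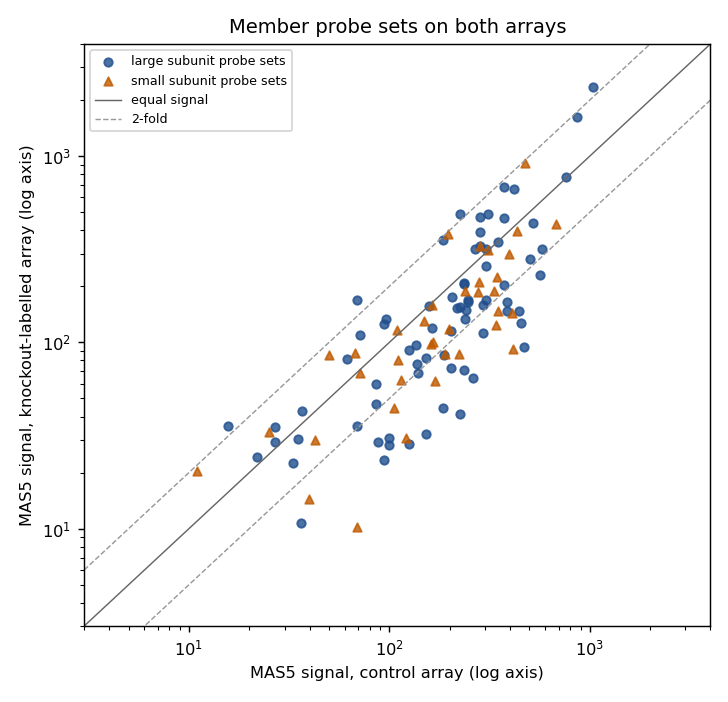
MAS5 signal of each member probe set on the knockout-labelled array (vertical, log axis) and on the control array (horizontal, log axis), for probe sets above the floor on at least 1 array, with lines of equal signal and of 2-fold difference. Signals are drawn without the floor; with it, 31 of the 111 probe sets are lower and 3 higher past 2-fold, and most of the points lie under the line of equal signal.

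Of these 74 genes, 65 had at least 1 promoter in RefSeq's table (GRCm38.p6), 250 bases before to 50 bases after a start, with 71 promoters in all. Short motifs known from promoters of nuclear genes for mitochondrial proteins were searched on both strands: the ETS family core CCGGAAG (bound by GABP), the NRF1 core GCGCATGC, and the YY1 core AAGATGGC. The promoters shown are those of the lowest gene of each subunit (Mrpl27 and Mrps16) and 4 of the 7 that hold motifs of 2 kinds. Of these 4, Mrps12 and Mrps18a were at least 2-fold lower and Mrpl32 and Mrpl22 were within 2-fold. The others with motifs of 2 kinds, Mrpl17 (-0.83), Mrps18b (-0.45) and Mrpl33 (0.24), were all within 2-fold and are not printed. Capitals mark the motifs on either strand, and overlapping matches run together. Mrps16 has a second promoter in the table (chr14:20393585-20393884), which held 0 of these motifs and is not printed.
Mrpl27, chr11:94653541-94653840, plus strand: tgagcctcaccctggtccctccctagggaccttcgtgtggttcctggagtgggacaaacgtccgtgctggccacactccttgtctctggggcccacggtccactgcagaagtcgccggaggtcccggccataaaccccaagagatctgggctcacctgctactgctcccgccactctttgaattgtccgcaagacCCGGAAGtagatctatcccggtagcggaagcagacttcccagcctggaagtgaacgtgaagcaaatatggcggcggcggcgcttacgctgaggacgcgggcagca
Mrps16, chr14:20393441-20393740, minus strand: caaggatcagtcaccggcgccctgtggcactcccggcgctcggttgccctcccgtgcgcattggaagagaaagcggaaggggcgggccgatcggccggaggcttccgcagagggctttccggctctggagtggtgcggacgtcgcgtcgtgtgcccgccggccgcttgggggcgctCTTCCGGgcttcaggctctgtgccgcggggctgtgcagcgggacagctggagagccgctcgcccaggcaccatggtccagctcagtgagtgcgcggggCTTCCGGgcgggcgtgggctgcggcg
Mrps12, chr7:28741772-28742071, minus strand: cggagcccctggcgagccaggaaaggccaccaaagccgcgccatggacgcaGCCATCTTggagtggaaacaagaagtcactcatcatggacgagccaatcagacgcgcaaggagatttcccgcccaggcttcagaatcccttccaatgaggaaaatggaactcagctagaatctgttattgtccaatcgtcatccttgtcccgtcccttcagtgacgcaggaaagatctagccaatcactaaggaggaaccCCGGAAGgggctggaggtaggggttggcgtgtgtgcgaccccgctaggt
Mrps18a, chr17:46110754-46111053, plus strand: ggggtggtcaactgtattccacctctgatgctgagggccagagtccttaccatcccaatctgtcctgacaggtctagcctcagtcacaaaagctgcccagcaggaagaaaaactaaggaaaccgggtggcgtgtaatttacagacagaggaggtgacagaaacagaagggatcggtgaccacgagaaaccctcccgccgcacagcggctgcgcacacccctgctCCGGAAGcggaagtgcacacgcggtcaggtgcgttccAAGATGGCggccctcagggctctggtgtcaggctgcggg
Mrpl32, chr13:14612988-14613287, minus strand: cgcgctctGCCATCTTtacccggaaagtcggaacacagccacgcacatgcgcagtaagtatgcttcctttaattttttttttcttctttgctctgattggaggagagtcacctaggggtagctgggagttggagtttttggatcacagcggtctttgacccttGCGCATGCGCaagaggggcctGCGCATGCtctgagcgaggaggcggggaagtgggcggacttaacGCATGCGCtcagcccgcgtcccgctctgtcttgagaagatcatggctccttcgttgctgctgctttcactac
Mrpl22, chr11:58171414-58171713, plus strand: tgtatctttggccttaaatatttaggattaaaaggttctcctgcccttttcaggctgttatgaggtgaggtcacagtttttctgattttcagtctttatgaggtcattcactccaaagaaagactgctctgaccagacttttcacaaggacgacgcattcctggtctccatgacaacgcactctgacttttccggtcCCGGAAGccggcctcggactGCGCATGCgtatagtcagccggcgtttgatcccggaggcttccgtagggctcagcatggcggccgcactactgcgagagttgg

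The ETS core lay in 24 of the 71 member promoters (33.8%), against 17.4% of 8916 promoters of the other genes compared and 8.86% of all 32851 promoters. The YY1 core lay in 11 (15.5%), against 4.33% and 2.75%, and the NRF1 core in 8 (11.3%), against 5.20% and 2.71%. At least 1 of these motifs was in 36 member promoters (50.7%), against 24.7% of promoters of the other genes compared, 54.0% of those of cytosolic ribosomal protein genes and 42.0% of those of nuclear respiratory chain genes. Of the 11 YY1 matches in member promoters, 7 lay in the bases after the start. Searched in the same way, the hypoxia response core ACGTG was in 26.8% of member promoters and 25.6% of those of the other genes compared, and the GC box GGGCGGG in 45.1% and 47.4%. TATAAA was in 7.04% and 7.68%, and CCAAT in 39.4% and 36.9%. The pooled shares hide differences between the 46 large subunit and the 25 small subunit promoters. In that order, the hypoxia core was in 34.8% and 12%, and the GC box in 37.0% and 60%. The ETS core was in 30.4% and 40%, the YY1 core in 13.0% and 20%, and the NRF1 core in 15.2% and 4%. These differences were not tested. The 24 genes with an ETS core had a median log2 ratio of -0.53 and the 41 without one -0.51. The 8 with an NRF1 core had -0.64, with 1 of them lower past 2-fold, and the 57 without one -0.51, with 18 lower. The 16 with the hypoxia core had -0.39 and the 49 without it -0.62. The 11 genes with a YY1 core had a median of -1.12, with 6 of them at least 2-fold lower (Mrps11, Mrpl37, Mrps12, Mrpl42, Mrps18a and Mrps7), and the 54 without one had a median of -0.47, with 13 at least 2-fold lower. Such matches are descriptions of letters and 11 is a small number. The 36 genes with at least 1 of the ETS, NRF1 and YY1 cores had a median of -0.72 and the 29 without -0.49, and these differences were not tested.

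In the large subunit, the lowest log2 ratio belonged to Mrpl27, the homologue of a bacterial protein that reaches into the peptidyl transferase centre. Its signal was 94.4 on the knockout-labelled array and 469 on the control array, a log2 ratio of -2.31. Mrpl54, which has no bacterial homologue, had 32.2 and 152 in the same order (-2.24). Mrpl14, a protein of the face that meets the small subunit, had 28.5 on the knockout-labelled array and 125 on the control array (-2.14). On the knockout-labelled array both Mrpl54 and Mrpl14 were close to the floor, and a floor at the 60th percentile leaves them at -1.20 and -0.92. Mrpl34, a small basic rRNA-binding protein, had 44.2 on the knockout-labelled array and 186 on the control array (-2.08). All of these genes rest on 1 measured probe set, and Mrpl27, like Mrpl23, Mrpl48 and Mrps36, has a pseudogene in the RefSeq table whose transcripts, if any, its probes may share.

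Not all genes of the stalk and of the exit tunnel were lower past 2-fold. Mrpl12, the stalk protein that recruits translation factors and in human cells also binds the mitochondrial RNA polymerase, had 127 on the knockout-labelled array and 453 on the control array (log2 ratio -1.83). Mrpl10, which holds Mrpl12 at the base of the stalk, had 68.3 and 138 (-1.02), just past the 2-fold rule. Mrpl11, also of the stalk base, gave no settled direction, as described with the other genes that have several probe sets. Mrpl4, which lines the tunnel through which the new chain leaves, had 71.2 on the knockout-labelled array and 236 on the control array (-1.73). Mrpl23 and Mrpl24, which lie at the tunnel's mouth, were at -1.24 and -1.30. Mrpl22, of the tunnel wall, was at 0.48 (393 on the knockout-labelled array and 282 on the control array), and Mrpl47, which also lies at the tunnel exit, was at 0.47. Mrpl45, which tethers the ribosome to the inner membrane, was at -0.24. Mrpl22, Mrpl47 and Mrpl45 were all within the probe set error of no difference. Other genes at least 2-fold lower were Mrpl37 (-1.70), Mrpl55 (-1.58), Mrpl58 (-1.39), Mrpl42 (-1.38) and Mrpl21 (-1.13), of which Mrpl58 encodes a peptidyl-tRNA hydrolase that frees stalled ribosomes. On the knockout-labelled array Mrpl37 (30.6) and Mrpl55 (29.2) were close to the floor. The nearest gene short of 2-fold was Mrpl38 (-0.96). Also lower, but within 2-fold, were Mrpl18 (-0.85), Mrpl9 (-0.84), Mrpl17 (-0.83), Mrpl20 (-0.69), Mrpl2 (-0.58), Mrpl16 (-0.56), Mrpl36 (-0.46) and Mrpl35 (-0.25). Mrpl2, which helps shape the peptidyl transferase centre, had 164 on the knockout-labelled array and 246 on the control array.

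The large subunit genes higher past 2-fold were Mrpl52 and Mrpl44. Mrpl52 had 2344 on the knockout-labelled array and 1038 on the control array at its brightest probe set (log2 ratio 1.18), and Mrpl44, a protein with an RNase III-like fold, had 489 and 226 (1.12). Next came Mrpl39, related to threonyl-tRNA synthetase, with 1612 on the knockout-labelled array and 864 on the control array (0.90), and Mrpl13 with 684 and 372 (0.88). For all 4 of these genes another probe set above the floor on both arrays had a negative ratio. Among the brighter members, Mrpl51 had 776 on the knockout-labelled array and 758 on the control array (0.03). Mrpl43 and Mrpl33, each with 1 measured probe set, were at 0.05 and 0.24. Further genes of the central protuberance, the crown of the large subunit, had log2 ratios of -0.51 for Mrpl40 and -0.49 for Mrpl46.

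**Figure D2:**
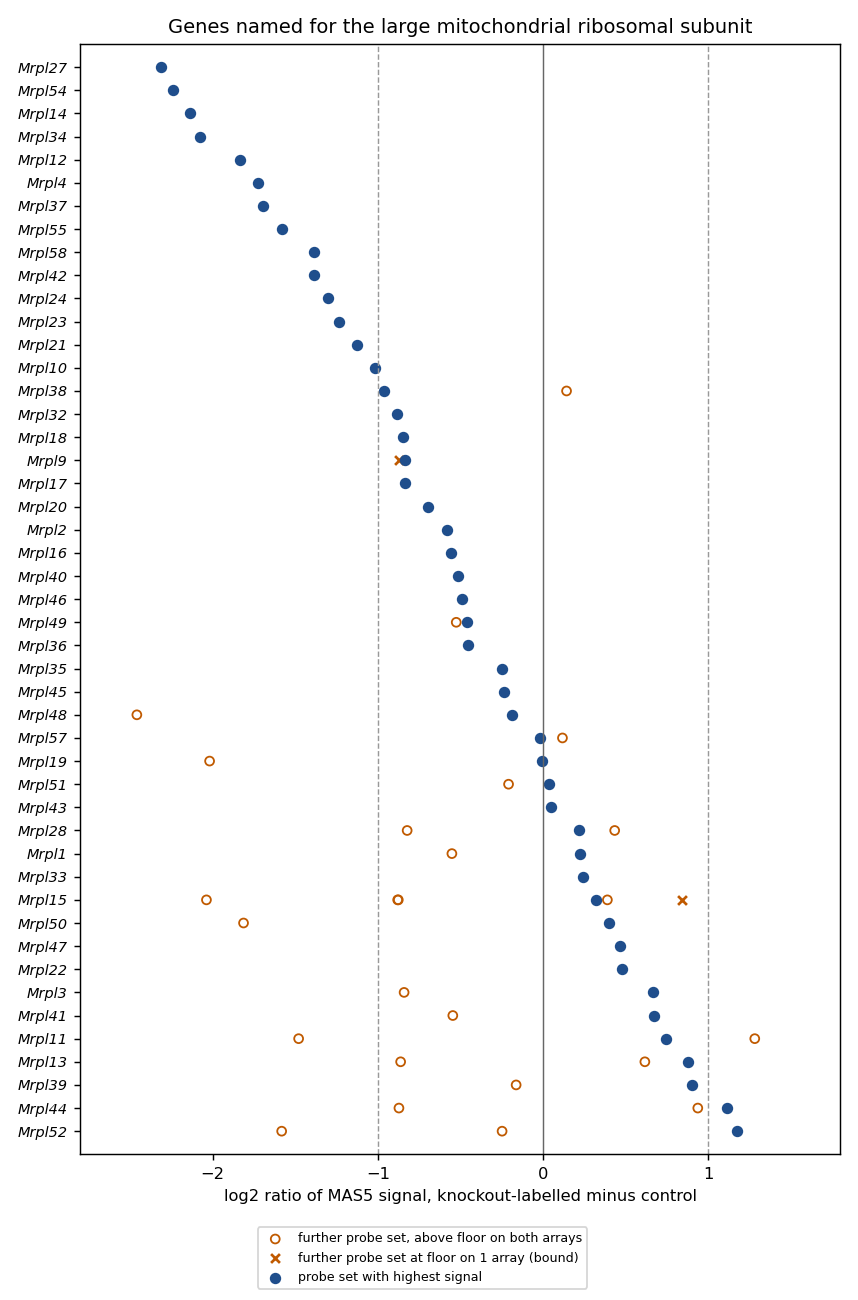
Log2 ratio of MAS5 signal, knockout-labelled minus control (horizontal), for the 47 large subunit genes (rows), with the brightest probe set filled, further probe sets open and bounds crossed; dashed lines mark 2-fold. Genes at the top of the plot mostly have 1 point, and most genes with filled points right of 0 have open points on the left.

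The small subunit was led by Mrps16, the homologue of a bacterial protein of the subunit's body, with 91.9 on the knockout-labelled array and 412 on the control array, a log2 ratio of -2.17. Mrps11 had 30.6 and 121 in the same order (-1.99), and only -0.87 with the floor at the 60th percentile. Mrps12, a protein of the decoding centre, had 144 on the knockout-labelled array and 409 on the control array (-1.50). Mrps6 had 62.1 and 168 (-1.44), and Mrps5, which lies near the mRNA entry, had 44.4 and 106 (-1.25). Mrps5 fell short of 2-fold with the floor at the 60th percentile (-0.67), after median centring (-0.97) and with the trend on signal removed (-0.94). It was also at least 2.02-fold lower at its second probe set, where the knockout-labelled array was at the floor. Mrps34 (-1.23) and Mrps7 (-1.12) were lower as well. Mrps23 was at -0.86 at its brightest probe set, and its other probe set, with 10.2 (under the floor) on the knockout-labelled array and 68.7 on the control array, was at least 3.48-fold lower.

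At the other end, Mrps9 had 381 on the knockout-labelled array and 196 on the control array (log2 ratio 0.96), and Mrps24 had 920 and 476 (0.95) at the brighter of its probe sets, both short of 2-fold. Mrps2 (0.21) and Mrps31 (0.09) followed. The 3 homologues of bacterial S18 did not go together, with ratios of -1.36 for Mrps18a (86.7 on the knockout-labelled array and 223 on the control array), -0.45 for Mrps18b and 0.01 for Mrps18c. Mrps21 (-0.83), Mrps35 (-0.72), Mrps33 (-0.62), Mrps28 (-0.40), Mrps17 (-0.40), Mrps26 (-0.33) and Mrps22 (-0.19) were lower within 2-fold. The bright members Mrps14 and Mrps15 were at -0.64 and -0.14. Names and structure do not match throughout, since Mrps18a and Mrps30 (-0.04) are built into the large subunit and Mrps36 (-0.75) is known as a part of the 2-oxoglutarate dehydrogenase complex. Without these 3 genes, 7 of 24 small subunit genes were at least 2-fold lower (median -0.63), and with Mrps18a and Mrps30 added 15 of 49 large subunit genes were (median -0.49).

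**Figure D3:**
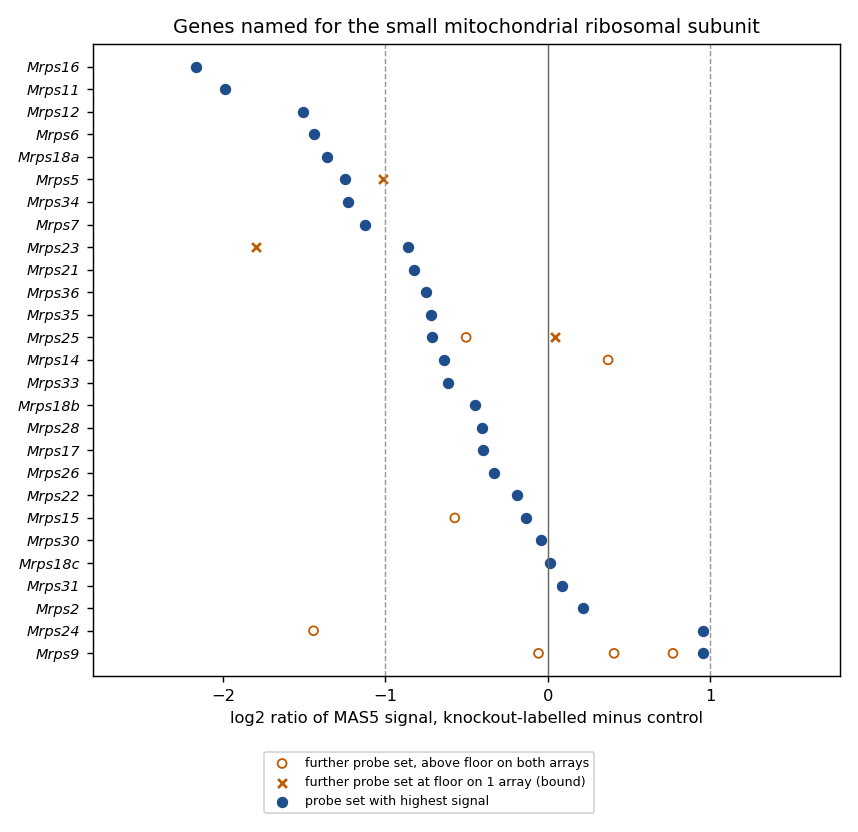
Log2 ratio of MAS5 signal, knockout-labelled minus control (horizontal), for the 27 small subunit genes (rows), with the brightest probe set filled, further probe sets open and bounds crossed; dashed lines mark 2-fold. 8 filled points lie left of the lower 2-fold line and 0 right of the upper one.

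Members with a bacterial homologue and members without one were set side by side. Of 43 with a homologue, 16 were lower and 0 higher past 2-fold (median log2 ratio -0.69). Of 30 without one, 6 were lower and 2 higher past 2-fold (median -0.39). Within the large subunit the medians were -0.76 over 28 genes with a homologue and -0.19 over 19 without, and within the small subunit -0.64 over 15 and -0.62 over 11. Mrps18a (-1.36), named above as a homologue of bacterial S18, was counted here among the members without one, whereas Mrps18b and Mrps18c were counted with one. Mrps36 was placed in neither group. The counts and medians depend on such placing. This grouping was made with the values known and its difference was not tested. The groups were not matched for the number of probe sets above the floor on both arrays. Members with 1 such probe set had a median of -0.84 and those with several 0.27. The part of this number in the difference between the groups was not tested either.

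All 22 lower calls came from genes with 1 probe set above the floor on both arrays. Of 52 such members, 22 were lower and 0 higher past 2-fold (median -0.84), where 16.4% of all 5216 genes of this kind were lower and 4.18% higher. Of the 22 members with several such probe sets, 0 were lower and 2 higher past 2-fold at the brightest one (median 0.27), where 5.15% and 10.6% of 2660 genes were. In 18 of these 22 members (81.8%) the brightest probe set had a higher ratio than the next, as it did in 68.0% of all 2660 genes. The median over the 22 was 0.27 at the brightest and -0.55 at the next, and 17 of them had probe sets of both signs, which was the case in 55.0% of all 2660 genes. Since the choice of the brightest probe set moved with the ratio, the direction of most of these 22 genes was not settled.

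The disagreement was wide in single genes. Mrpl52 had 3 measured probe sets, with signals on the knockout-labelled array and the control array of 2344 and 1038 (log2 ratio 1.18), 437 and 519 (-0.25), and 148 and 442 (-1.58). Mrpl11 gave 473 on the knockout-labelled array against 283 on the control array at one probe set (0.74), 168 against 69.3 at another (1.28), and 72.9 against 203 at the last (-1.48). Mrps24 gave 0.95 and -1.44 at its 2 probe sets. Mrpl15 had 5 probe sets above the floor on both arrays, with ratios between -2.04 and 0.39. Another had 35.4 on the knockout-labelled array and 15.7, under the floor, on the control array, so it was at least 1.79-fold higher.

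Mrpl48, a protein of the central protuberance, had 207 on the knockout-labelled array and 235 on the control array at a probe set that can match other sequences (-0.19), but 41.0 and 226 at the other (-2.46). Mrpl19 gave -0.01 and -2.02, Mrpl50 gave 0.40 and -1.81, and Mrpl44 gave 1.12, 0.94 and -0.87. Mrpl13 (0.88, -0.86 and 0.62), Mrpl3 (0.66 and -0.84), Mrpl41 (0.67 and -0.55), Mrpl28 (0.22, -0.82 and 0.43) and Mrpl39 (0.90 and -0.16) also crossed 0. So did Mrpl1 (0.22 and -0.55), Mrpl38 (-0.96 and 0.14), Mrpl51 (0.03 and -0.21), Mrpl57 (-0.02 and 0.12), Mrps14 (-0.64 and 0.37) and Mrps9 (0.96, -0.06, 0.77 and 0.41). Probe sets above the floor on both arrays were all lower, within 2-fold, for Mrpl49 (-0.46 and -0.53), Mrps15 (-0.14 and -0.57) and Mrps25 (-0.71 and -0.50). Another probe set of Mrps25 had 20.3 on the knockout-labelled array and 11.0, under the floor, on the control array.

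**Figure D4:**
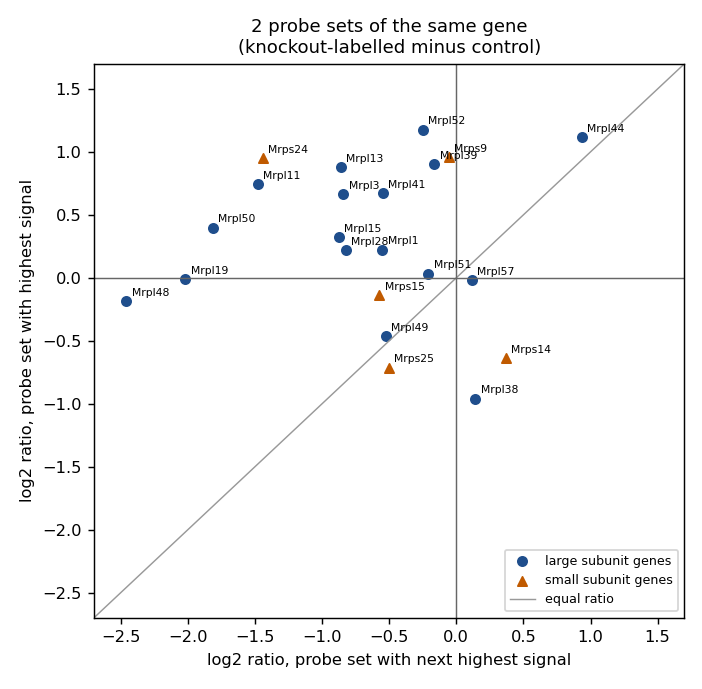
Log2 ratio, knockout-labelled minus control, at the brightest probe set (vertical) and at the next (horizontal) for the 22 members with at least 2 probe sets above the floor on both arrays. Of these genes, 18 lie above the line of equal ratio.

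The disagreement followed the kind of probe set in part. Affymetrix names a probe set with _at where its probes match 1 transcript, _a_at where they match several transcripts of a gene, and _s_at or _x_at where they can match other sequences too. In the 16 members with a measured probe set of the plain kind and of another kind, the other kind had the higher ratio in 12, with a median difference of 1.05. Over 1370 genes of the whole array the other kind was higher in 68.4%, with a median difference of 0.51. The 12 member probe sets ending in _x_at had a median ratio of 0.52, close to the 0.48 of all 963 such probe sets, whereas the 62 plain ones had -0.57 and the 31 ending in _a_at -0.69, where all probe sets of those kinds had -0.15 and -0.24. The 6 ending in _s_at did not read higher, with a median of -1.20 and 3 of them lower past 2-fold, where all 1032 of that kind had 0.05.

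Signal and gene length also moved with the ratio. All genes were split by mean signal into 5 groups of equal size, and 35 members fell in the fourth, with a median log2 ratio of -0.56 against 0.01 for the other genes there. The 19 members in the middle group had -0.71 against -0.19, and the 9 in the one below it had -1.58 against -0.35. The 10 members in the brightest group had 0.67 against 0.31, and the 1 member in the dimmest group had 0.22 against -0.24. Members were short genes, with a median genomic length of 7610 bases against 22369 for all genes. Of the 74, 39 lay in the shortest of 5 groups of equal size, with a median of -0.56 where the other genes there had -0.40, and 11 of these 39 were at least 2-fold lower where 22.6% of the other genes were. The 21 members in the next group had a median of -0.62 against -0.24, and the 9 in the middle group -0.72 against -0.10. The 4 members in the fourth group were level with the other genes there (0.02 against 0.05), and the 1 among the longest genes had -0.40 against 0.12. Genomic length is not transcript length, which was not analysed here, and the part of length, signal and 3′ to 5′ imbalance in the members' ratios was not tested.

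Other genes that serve the mitochondrial ribosome were read beside the members. Of 4 measured ribosomal proteins outside the naming rule, Gadd45gip1, which sits near the tunnel exit, had 26.6 on the knockout-labelled array and 123 on the control array (log2 ratio -2.21), and Dap3, a GTP-binding protein of the small subunit, was at -0.48. The others were Chchd1 (-0.12) and Ptcd3 (0.24), for a median of -0.30. Of 21 factors for assembly and rRNA, 2 were at least 2-fold lower, the assembly GTPase Mtg2 (-1.37, with the knockout-labelled array just above the floor) and the matrix protease Lonp1 (-1.06), and 1 was higher, the RNA-binding protein Fastkd2 (1.09, with 0.06 and 0.48 at its other probe sets), for a median of -0.40. Of 13 translation factors and helpers, Tufm, the elongation factor that brings aminoacyl-tRNA, was lower (23.0 on the knockout-labelled array and 69.1 on the control array, -1.58), for a median of -0.18. Of 12 tRNA synthetases and amidotransferase subunits, Kars, which serves both the cytosol and mitochondria, was lower (-1.20), for a median of -0.23. Of 10 genes for transcription and replication of mitochondrial DNA, 0 were at least 2-fold lower and 1 was higher, the single-strand binding protein Ssbp1 (1.06, with -0.83 at its other probe set), for a median of 0.03. The one gene of mitochondrial DNA with a probe set of its own, ND5, a complex I subunit made on these ribosomes and read here as an example chosen after its value was seen, had 866 on the knockout-labelled array and 825 on the control array (0.07).

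The subunits of the respiratory chain and the cytosolic ribosome had medians on the other side of 0. Past 2-fold, 4 of 46 cytosolic ribosomal protein genes were lower and 2 higher, and the median log2 ratio was 0.21. The lowest were Rps27 (-2.01 as an upper bound), Rps4l (-1.38) and Rps19 (-1.21), and those higher past 2-fold were Rpl27a (5.66-fold) and Rps25 (2.08-fold). Of 76 nuclear genes for respiratory chain and ATP synthase subunits, 13 were lower and 3 higher past 2-fold, and the median was 0.27 with a lower quartile of -0.82. The lowest were Cox8a (-2.76, with -3.53 at its other probe set), Atp5g1 (-1.97) and Cox6b2 (-1.97 as an upper bound). The highest were Ndufa12 (1.42, with 1.32 and -0.27 at its other probe sets) and Uqcrc2 (1.11, with -0.06 at its other probe set). Neither sign held under every setting: after quantile normalization the cytosolic ribosome stood at -0.24 and the respiratory chain at 0.03, where the large and the small mitochondrial subunit stood at -0.30 and -0.53. With plain _at probe sets alone the respiratory chain stood at -0.81, the cytosolic ribosome at -0.13, the large subunit at -0.70 and the small subunit at -0.61. The difference between the mitochondrial ribosome and these lists was not tested.

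**Figure D5:**
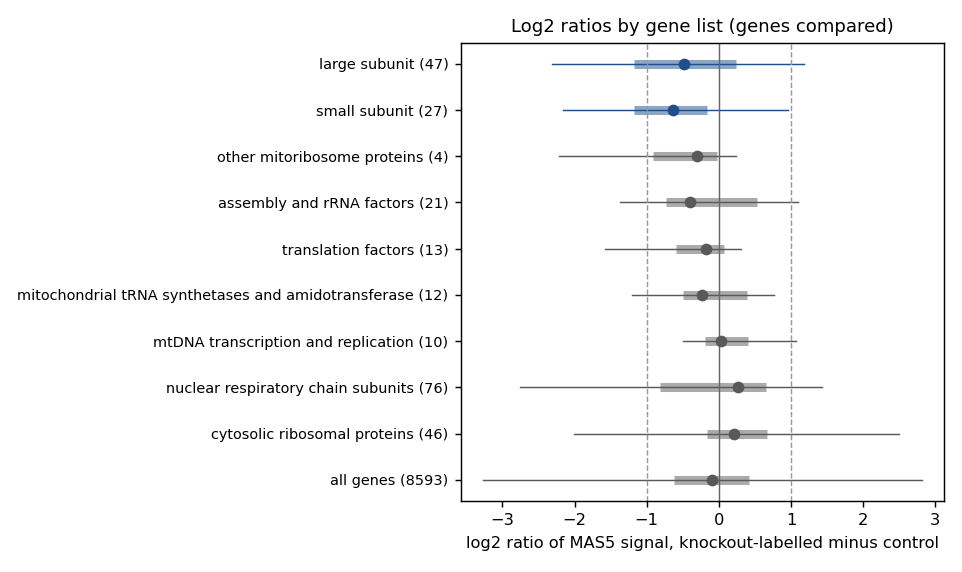
Median (point), quartiles (thick bar) and range (thin line) of log2 ratios, knockout-labelled minus control, for the genes compared in each list, with the number of genes in brackets. The large and small subunit medians, -0.49 and -0.64, lie below that of all genes, -0.10.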

How the data were processed

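The deposited values are intensities, 1 MAS5 signal per probe set on a linear scale, made by the authors with MAS5 in Affymetrix Expression Console version 1, per the submitters' processing notes. No source used here gives the scaling target. Both arrays have a mean signal of 150.1 after 2% of the 22690 probe sets is trimmed at either end, and no further scaling was applied. Per the labels' protocols, RNA was labelled with a kit that primes from the 3′ end.

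Of 22626 probe sets that are no controls, 20380 have 1 gene symbol in the platform annotation and were used. Symbols were updated through the RefSeq gene table of GRCm38.p6, which changed 0 member symbols. Signals were floored at the 40th percentile, and the 8593 genes that reached it on either array were compared. Log2 ratios were taken as knockout-labelled minus control. Groups were taken from the sample titles. Alternatives were quantile normalization, median centring, removal of a lowess trend on signal (span 0.4), floors at the 25th and 60th percentiles, a pseudocount of 4.70 in place of the floor, the median over a gene's probe sets, leaving out probe sets by suffix, 1.5-fold and 3-fold rules, and symbols left as annotated. Added after seeing the data were removal of a trend on genomic gene length, the dimmest measured probe set of a gene, and only genes above the floor on both arrays. Removal of a trend on protein length was not run, since protein lengths were not used here.

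Members and lists were chosen with earlier results of these data known. Named genes are, per subunit, the 6 lowest and 4 highest ratios above the floor on both arrays, the 3 brightest, and genes whose measured probe sets differ in sign or by over 1. In the other lists they are at most the 3 lowest and 2 highest genes past 2-fold. Genes named beyond this rule were chosen after their values were seen. The size rule was tested on simulated data, which cannot tell how many calls in these arrays are false. Computations used Python 3.11.15, pandas 2.3.3 and statsmodels 0.14.6.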

Additional observations from a re-analysis of the deposited data

How the results depend on the processing

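No paired analysis was possible because each group has 1 array. A single pool per genotype, probe sets that disagree within a gene and signals near the floor limit every value. The large subunit median log2 ratio (-0.49) was -0.30 after quantile normalization, -0.21 after median centring, -0.31 with the trend on signal removed, -0.20 with the trend on genomic length removed, -0.64 without _s_at and _x_at probe sets, -0.70 with plain _at probe sets alone and -0.83 at the dimmest measured probe set. The small subunit median (-0.64) was -0.36 after median centring, -0.50 with the median over probe sets and -0.47 with the trend on length removed. Neither median changed sign under any setting run. Large subunit genes higher past the size rule (2) numbered 5 after median centring or length trend removal. With the signal trend removed or the dimmest probe set they numbered 1. They numbered 0 with the median over probe sets or plain _at probe sets alone, 7 at 1.5-fold and 0 at 3-fold. Large subunit genes lower (14) numbered 7 at 3-fold. With the floor at the 60th percentile (46 genes left) they numbered 11, where 9.28% of all genes were lower. Small subunit genes lower (8) numbered 5 after median centring, 4 with plain _at probe sets alone (18 genes left), 15 at 1.5-fold and 2 at 3-fold, and those higher (0) numbered 1 after quantile normalization or length trend removal and 2 after median centring or at 1.5-fold. Read beside these counts, all genes were lower and higher in 7.79% and 13.3% after median centring, 9.54% and 8.22% after quantile normalization, 9.59% and 7.87% with the signal trend removed, 9.97% and 8.65% with the length trend removed, 12.8% and 4.24% with the median over probe sets, 15.1% and 5.72% with plain _at probe sets alone, 16.8% and 5.21% at the dimmest probe set, 26.4% and 18.5% at 1.5-fold, and 3.84% and 1.23% at 3-fold. The cause of these shifts was not tested, apart from the size rules and the smaller number of genes. Mrpl52 turned to -0.25 with the median over probe sets and to -1.58 with plain _at probe sets alone or the dimmest probe set, and Mrpl44 turned to -0.87 under both of the last settings. Of 436 further values of named genes, 396 moved by less than the probe set error of 0.64 and 35 by more without reversing a 2-fold call. Some of the 35 lost the call, as Mrpl14 (-0.92) and Mrps11 (-0.87) did with the floor at the 60th percentile. Others, without a call before, changed sign and became lower past 2-fold. At the dimmest measured probe set Mrpl50 went from 0.40 to -1.81 and Mrps24 from 0.95 to -1.44. The 396 include settings that could not move these genes that far. A floor at the 25th percentile, symbols left as annotated and the limit to genes above the floor on both arrays left their values as they were. Median centring added 1 constant smaller than 0.64.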

Other observations

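Probe sets annotated with several symbols entered no comparison. The one shared by Ccdc142 and Mrpl53 had a signal of 93.3 on the knockout-labelled array and 300 on the control array, a log2 ratio of -1.69. The one shared by Nme3 and Mrps34 had 6.08 on the knockout-labelled array, under the floor, and 106 on the control array, so it was at least 5.37-fold lower. The one shared by Gm6238 and Mrpl30 had 829 on the knockout-labelled array and 948 on the control array (-0.19). These signals cannot be assigned to either gene of a pair.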
